A study of Mus musculus with 8 samples.

Results

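The interaction of genotype and population asks whether the RNA difference that goes with loss of Irf8 is the same in 2 kinds of granulocyte progenitor (GP). It was computed for each gene as the difference between arrays labelled Irf8KO and wild type (WT) in Flt3+ progenitors, minus the same difference in Flt3- progenitors, so it uses all 8 of the 8 arrays of the series. A value above 0 means that the gene was higher on Irf8KO arrays in Flt3+ cells relative to what the genotype did in Flt3- cells, and a value below 0 means the reverse. The 4 groups, with 2 arrays each, were WT Flt3+, Irf8KO Flt3+, WT Flt3- and Irf8KO Flt3- progenitors, sorted from mouse bone marrow and used as primary cells with no treatment in culture. The design text speaks of wild-type and Irf8-deficient mice and of 2 independent experiments. Each experiment gave 1 array per group and therefore 1 complete value of the interaction. The labels do not state strain, age, how many mice were pooled for a sample or the kind of Irf8 allele, so a p-value here reflects the scatter of these arrays alone, part of which may be technical, and 2 arrays per group limit its precision.

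Irf8 is a transcription factor of the interferon regulatory factor family that favours monocyte and dendritic cell fates over granulocytes in bone marrow. It binds DNA poorly on its own and is known to act with partners such as PU.1 at ETS-IRF composite elements and BATF at AP-1 composite elements. Flt3 is the receptor tyrosine kinase for Flt3 ligand, is carried by multipotent, lymphoid and dendritic cell progenitors, and is lost as progenitors commit to granulocytes or red cells.

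Signal was measured on 1-colour Agilent arrays. Levels below are log2 processed signals from which each array's own 75th percentile was subtracted. Of 59305 spots per array 54.9 to 60.1% were well above background, none was saturated, and arrays of a group correlated at r = 0.9958 to 0.9975 across genes. All 8 arrays lay on 1 slide, with WT in row 1, Irf8KO in row 2, Flt3+ in columns 1 and 2 and Flt3- in columns 3 and 4, so slide position and group cannot be told apart. The single Irf8 probe read higher in the library group labelled Irf8KO than in WT, by 0.84 in Flt3+ and 0.72 in Flt3- cells. Its place relative to the deletion is unknown, so it checks no label, and every direction between genotypes rests on the labels. Irf8 itself had an interaction of 0.11 (SE 0.0721, adjusted p = 0.291), which did not pass the test.

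The genotype difference ran in opposite directions in the 2 populations for 4 genes with different roles, Cavin2, Klra8, Ly6d and Ccnb1. Cavin2 (chromosome 1), which makes a coat protein of caveolae and is abundant in platelets, read -2.56 and -2.67 on the WT Flt3+ arrays but -7.58 and -7.43 on the Irf8KO Flt3+ arrays. In Flt3- cells it read -4.66 and -4.64 in WT and -4.01 and -3.88 on Irf8KO arrays. No 2 groups overlapped, and the Irf8KO Flt3+ group alone was not well above background. Its interaction was -5.59 (SE 0.106, adjusted p = 8.27e-05), but since that group has only an upper limit, the ratio of the genotype effects is properly stated as at least 9.83-fold. In such bounds the dim group is set, on each array, at the dimmest signal that still counted as well above background, or at the gene's own signal where that is higher.

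Klra8 (chromosome 6), a Ly49 receptor of natural killer (NK) cells, read -3.80 and -3.94 in WT Flt3+ cells, which overlapped with -3.84 and -3.71 in WT Flt3- cells. On Irf8KO arrays the populations stood far apart, at -7.25 and -7.12 in Flt3+ cells, not well above background, against -2.15 and -2.09 in Flt3- cells. The genotype difference was thus at least 2.52-fold downward in Flt3+ cells and 3.16-fold upward in Flt3- cells, an interaction of -4.97 (SE 0.111, adjusted p = 8.27e-05) or at least 7.97-fold. Ly49 genes form a family of near-identical copies that can share hybridisation, so which member was measured is uncertain.

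Ly6d (chromosome 15), a surface marker of the B-lineage-biased fraction of lymphoid progenitors, moved the other way. It read 0.77 and 0.87 in WT and 3.15 and 3.11 on Irf8KO arrays in Flt3+ cells, while in Flt3- cells it read -2.42 and -2.34 in WT and -4.90 and -4.14 on Irf8KO arrays. Only 1 of the latter 2 arrays was well above background. The groups did not overlap, and the interaction was 4.45 (SE 0.325, adjusted p = 0.00143). The populations differed 9.20-fold in WT, and no exact size can be given to the gap on Irf8KO arrays.

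Ccnb1 (chromosome 13), cyclin B1, the partner of Cdk1 at entry into mitosis, showed a smaller but tightly measured reversal. It read 3.04 and 3.12 in WT and 3.71 and 3.75 on Irf8KO arrays in Flt3+ cells, against 3.0 and 2.96 in WT and 2.54 and 2.56 on Irf8KO arrays in Flt3- cells. The WT populations differed by 0.10 (adjusted p = 0.107), while on Irf8KO arrays the Flt3+ cells stood 2.27-fold higher. The interaction was 1.08 (SE 0.0649, adjusted p = 0.000882), and all 3 probes of the gene gave values of the same sign, from 1.08 to 1.33.

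**Figure D1:**
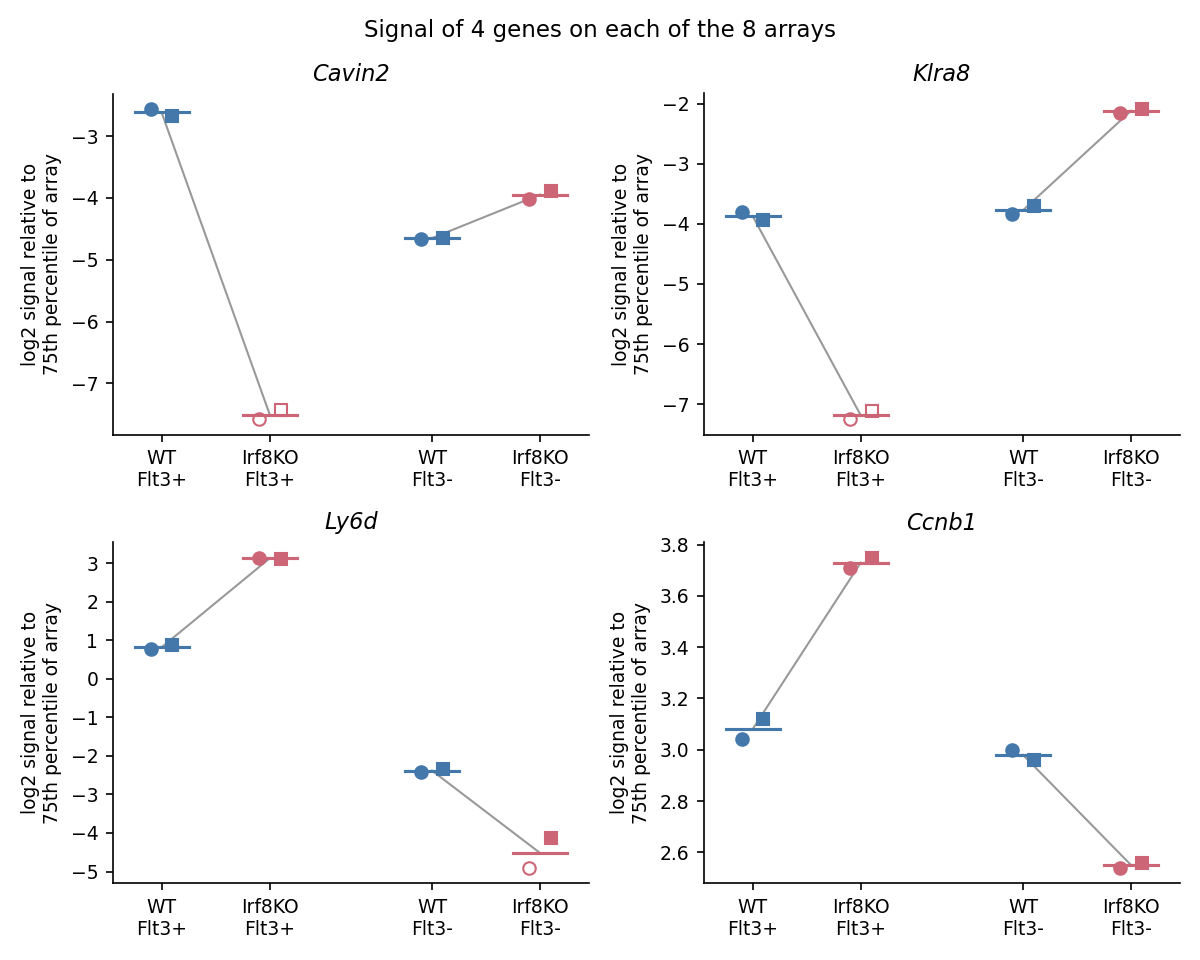
Log2 signal, scaled to each array's 75th percentile, for 4 genes on all 8 arrays, with WT in blue, Irf8KO in red, circles for experiment 1 and squares for experiment 2. Open symbols are not well above background, short bars are means of 2 arrays, and a grey line joins WT to Irf8KO within a population; the 2 lines of each gene slope in opposite directions, and the y axes differ between genes and do not start at 0.

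Across the transcriptome the genotype difference depended on the population for a large part of the genes. Of 14108 genes tested, 4354 (30.9%) had an interaction at an adjusted p under 0.05 in limma, which is what called means below, 3021 above 0 (21.4%) and 1333 below 0 (9.45%). Most were small. The median SE was 0.0961, 90% of genes lay between -0.7 and 0.68, and 429 called genes (3.04%) reached 2-fold, 192 above 0 (1.36%) and 237 below 0 (1.68%). The split by direction depended on scaling. After quantile normalization 3845 genes were called, 1976 above and 1869 below 0, so the excess above 0 was not kept under that scaling. The median over all genes was 0.07, 0.01 after quantile normalization and 0.15 when arrays were scaled to their medians. The count also rested on single arrays: it was 2586 without WT Flt3- replicate 1, 2553 without WT Flt3- replicate 2, 2900 without Irf8KO Flt3+ replicate 1 and 2515 without Irf8KO Flt3+ replicate 2.

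Each experiment alone gave the interaction from 4 arrays. The value had the same sign in both experiments for all 4354 called genes, and for 77% of all genes. Across 14104 genes the 2 experiments correlated at r = 0.589, and across called genes at r = 0.944; genes are not independent replicates, and the calls were made on these same arrays. An interaction is also a matter of scale. Of 4155 called genes with every group above background, 130 (3.13%) had the other sign when differences were taken on the linear signal in place of its log2.

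**Figure D2:**
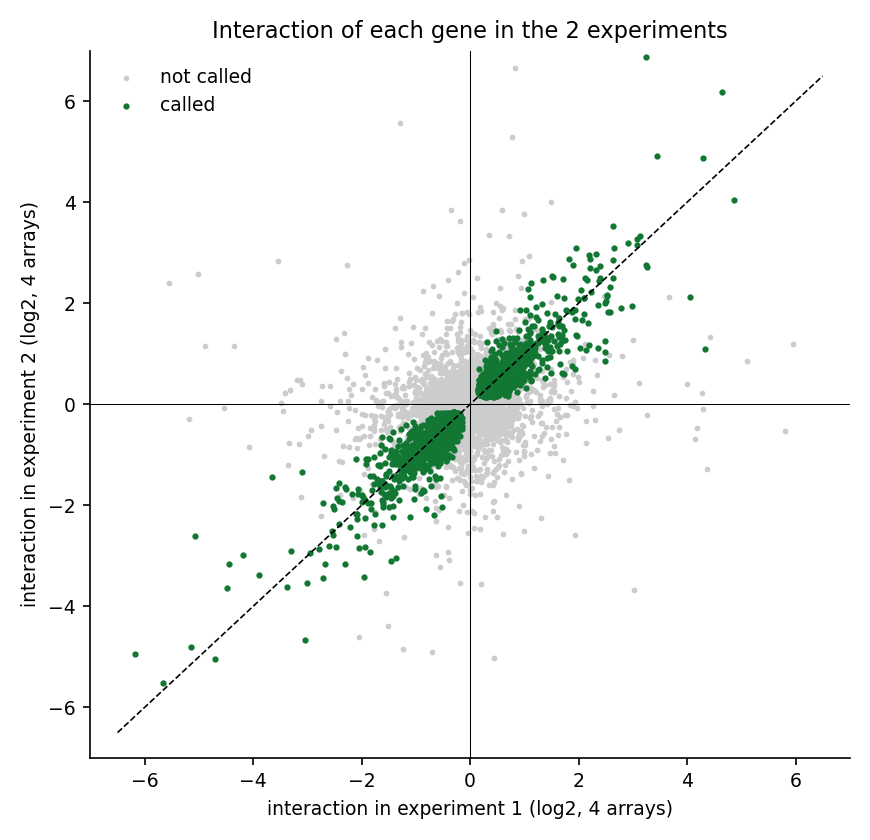
Interaction (log2) of each gene from the 4 arrays of experiment 1 (x axis) and the 4 arrays of experiment 2 (y axis), with called genes in green, other genes in grey and a dashed line of equality. All 4354 called genes have the same sign in both experiments and lie to the lower left or the upper right of the origin.

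The called genes differed in how the 2 populations contributed. For 2219 of them (51%) the genotype effect was called in Flt3- cells alone, 1689 with an interaction above 0 and 530 below 0. For 785 (18%) it was called in Flt3+ cells alone, for 308 and 251 it ran in the same direction but was larger in Flt3+ or in Flt3- cells, and for 172 it was called in neither. The background for these shares is that the genotype effect was called for 29% of all genes in Flt3+ and 43.6% in Flt3- cells. The genotype effects were called in opposite directions for 619 genes (4.39% of all tested), and 589 of these were well above background on all 8 arrays. This count was 537 after quantile normalization, 312 when arrays were scaled to their medians, 404 without WT Flt3+ replicate 1, 323 and 310 without WT Flt3- replicate 1 or 2, and 278 and 225 without Irf8KO Flt3+ replicate 1 or 2. Large reversals were few: 12 genes changed at least 2-fold both ways, and of these Wfdc21 alone, named after its values were seen, was above background on all 8 arrays.

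**Figure D3:**
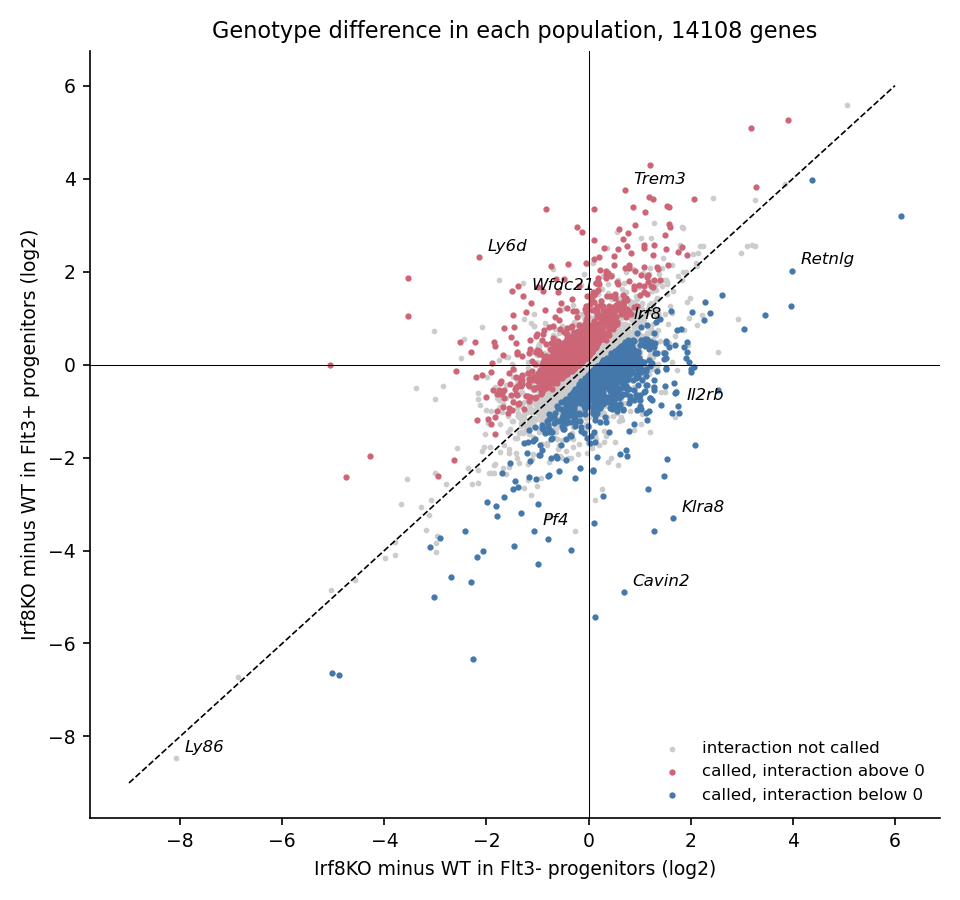
Irf8KO minus WT difference (log2) in Flt3- progenitors (x axis) and Flt3+ progenitors (y axis) for 14108 genes, with genes called in the interaction in red (above 0) or blue (below 0). The dashed line marks an equal effect in both populations; Irf8 and Ly86 lie on or near it, Ly6d and Wfdc21 lie to the upper left, and Cavin2, Klra8 and Il2rb lie to the lower right.

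Seen from the other side, the interaction is the change in the gap between Flt3+ and Flt3- cells. For 1748 called genes (40.1%) the populations differed in WT alone, and for 1204 (27.7%) they differed in both genotypes but less on Irf8KO arrays. The populations differed on Irf8KO arrays alone for 549 (12.6%), by more on Irf8KO arrays for 425 (9.76%), and with opposite signs in the 2 genotypes for 391 (8.98%). The background for these shares is that the populations differed more often in WT over all 14108 genes tested. In WT 3193 genes were called higher and 5535 lower in Flt3+ than in Flt3- cells, against 3121 and 3336 on Irf8KO arrays. These groups were formed from the calls themselves and carry no test of their own.

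Cell division genes gave the most uniform pattern. Of 34 genes of G2 and M phase, 33 were called above 0 and none below, with a median of 0.83 against 0.07 for all genes. Their median genotype difference was 0.46 in Flt3+ and -0.37 in Flt3- cells, and 25 of the 34 were called in opposite directions (4.39% of all genes). In WT 9 members were higher and 8 lower in Flt3+ than in Flt3- cells (3193 and 5535 of all 14108 genes), with a median gap of 0.04. On Irf8KO arrays 33 members were higher and 1 lower (3121 and 3336 of all genes), with a median of 0.85. The medians of the interaction were 0.82 in both experiments, and 31 to 34 genes were called above 0 under every other setting or with any 1 array left out. The summed signal of the 34 genes was 331 and 347 in WT Flt3+, 349 and 344 in WT Flt3-, 467 and 477 in Irf8KO Flt3+, and 271 and 270 in Irf8KO Flt3- cells. RNA was taken from whole sorted populations, so fewer cells of a kind and less RNA per cell cannot be told apart.

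Cdc25c, the phosphatase that activates Cdk1, had the largest value of the list, 1.27 (SE 0.208, adjusted p = 0.00893). It read -1.10 and -0.95 in WT Flt3+, -0.45 and -0.43 in Irf8KO Flt3+, -0.58 and -1.02 in WT Flt3-, and -1.42 and -1.56 in Irf8KO Flt3- cells, so the WT groups overlapped and the Irf8KO groups lay outside them on either side. Plk1, a kinase that drives mitotic entry and spindle assembly, read 3.91 and 3.94 in WT Flt3+, 4.56 and 4.55 in Irf8KO Flt3+, 3.85 and 3.91 in WT Flt3-, and 3.43 and 3.5 in Irf8KO Flt3- cells (interaction 1.05, SE 0.0625, adjusted p = 0.000877). Cdca3, a trigger of mitotic entry, had an interaction of 1.01 (SE 0.0886, adjusted p = 0.00196), with 0.37 in Flt3+ and -0.64 in Flt3- cells. Cenpf, a kinetochore protein named because it was the exception, stood at 0.74 with an adjusted p of 0.063.

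Promoters of mitotic genes are known for CCAAT boxes, bound by NF-Y, and for the cell cycle genes homology region, bound by the MuvB complexes. Both were searched for after the pattern had been seen, on both strands, from 250 bases before to 50 bases after the start of transcription in RefSeq (GRCm38.p6). The letters CCAAT were present in 82.8% of 29 promoters of 28 matched G2 and M phase genes, in 63.6% of 33 S phase promoters and in 37.7% of 14299 promoters of all tested genes that matched. TTTGAA or TTCGAA, the letters of the homology region, were present in 79.3%, 15.2% and 14.5% of the same promoters. Among the genes with opposite genotype effects, the CCAAT share was 45.1% and the TTTGAA or TTCGAA share 22.6%. A match is a description of the sequence and says nothing of binding in these cells. The promoters of 3 genes of the list with large interactions are shown to make the CCAAT letters visible. Each is given as 250 bases up to the base before the start, read 5′ to 3′ on the strand of the gene. Capitals mark CCAAT or, where it lies on the other strand, ATTGG.
Ccnb1: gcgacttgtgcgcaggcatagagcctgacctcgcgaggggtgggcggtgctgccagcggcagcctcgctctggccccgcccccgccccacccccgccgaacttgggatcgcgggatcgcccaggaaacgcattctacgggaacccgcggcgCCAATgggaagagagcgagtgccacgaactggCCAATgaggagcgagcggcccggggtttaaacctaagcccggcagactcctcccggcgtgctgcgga
Plk1: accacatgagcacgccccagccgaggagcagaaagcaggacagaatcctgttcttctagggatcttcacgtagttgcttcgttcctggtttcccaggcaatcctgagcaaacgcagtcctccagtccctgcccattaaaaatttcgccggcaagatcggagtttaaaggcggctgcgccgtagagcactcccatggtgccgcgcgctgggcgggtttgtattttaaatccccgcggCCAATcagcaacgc
Cdca3: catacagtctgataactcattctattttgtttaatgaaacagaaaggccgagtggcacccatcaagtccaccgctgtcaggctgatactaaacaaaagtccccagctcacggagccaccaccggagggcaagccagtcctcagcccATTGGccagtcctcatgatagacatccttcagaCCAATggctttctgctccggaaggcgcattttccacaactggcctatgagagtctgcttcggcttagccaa
The windows lie at chr13:100786487-100786736, minus strand, for Ccnb1, at chr7:122159185-122159434, plus strand, for Plk1, and at chr6:124829926-124830175, plus strand, for Cdca3. Those of Ccnb1 and Cdca3 hold 2 matches to CCAAT each and that of Plk1 holds 1. None of the 3 windows holds TTTGAA or TTCGAA on either strand. The 50 bases after the start, which the search also covered, are not printed.

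S phase and ribosome biogenesis genes had interactions of the same sign, mainly through a fall in Flt3- cells. Of 35 S phase genes 33 were called above 0 and none below (median 0.51), and the exceptions, named as such, were Tyms and Chaf1b. Their median genotype difference was -0.51 in Flt3- cells, where 34 of 35 fell (27.2% of all genes did), and 0.01 in Flt3+ cells, or -0.04 after quantile normalization. The called counts were 24 to 33 under the other settings and with any array left out. Rrm2, a subunit of the ribonucleotide reductase that makes DNA precursors, read 4.22 and 4.25 in WT Flt3+, 4.53 and 4.58 in Irf8KO Flt3+, 5.04 and 4.95 in WT Flt3-, and 4.38 and 4.33 in Irf8KO Flt3- cells. Its interaction was 0.96 (SE 0.0684, adjusted p = 0.00136), and the 4 groups did not overlap. Ccne1, cyclin E1 of the G1 to S transition, differed by -0.92 in Flt3- and -0.02 in Flt3+ cells, an interaction of 0.90 (SE 0.0741, adjusted p = 0.00179). Exo1, an exonuclease of mismatch repair, and Mcm10, a replication initiation factor, stood at 0.90 and 0.88, each with a rise of 0.28 in Flt3+ cells. In Flt3+ cells 8 of the 35 S phase genes rose and 3 fell, beside 16.5% and 12.5% of all genes. Genotype effects were called in opposite directions for 8 of the 35, Rrm2, Exo1 and Mcm10 among them, and for 4 after normexp correction (4.39% of all genes in the main fit).

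Of 33 ribosome biogenesis genes 28 were called above 0 and none below, with a median of 0.51, and 28 of 33 fell in Flt3- cells, where the median difference was -0.40. In Flt3+ cells the median difference was 0.10. Genotype effects were called in opposite directions for 4 (4.39% of all genes in the main fit), Ncl and Ebna1bp2 among them. The number was 1 after normexp correction and 9 with an intensity trend. The 5 that were not called, named for that reason, were Pes1, Wdr12, Noc3l, Nob1 and Rrn3. Nolc1, a nucleolar chaperone of small nucleolar particles, read 4.18 and 4.12 in WT Flt3+, 4.24 and 4.25 in Irf8KO Flt3+, 4.86 and 4.84 in WT Flt3-, and 4.18 and 4.20 in Irf8KO Flt3- cells. Only the WT Flt3- group stood apart, and the interaction was 0.76 (SE 0.0587, adjusted p = 0.00159). Ncl, nucleolin, stood at 0.62, as did, at 0.61 each, Ebna1bp2 and Nip7, factors of the large ribosomal subunit whose probes did not all share a sign (2 of 3 and 1 of 2 did). The call of Nip7 was lost without WT Flt3- replicate 1 or Irf8KO Flt3+ replicate 2 (adjusted p = 0.0513 to 0.055). Cholesterol and fatty acid synthesis genes leaned the same way but less evenly, with 10 of 26 called above 0, 1 below and a median of 0.23. Without WT Flt3- replicate 1 or Irf8KO Flt3- replicate 1 only 6 were called above 0. Sqle, squalene epoxidase of the sterol pathway, had an interaction of 0.67, with a fall of 0.77 on the log2 scale in Flt3- cells, and Idi1, an isomerase of isoprenoid synthesis, stood at 0.54.

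Immediate early genes, which respond within minutes to growth factors and to handling of cells, had interactions of the opposite sign to the cell cycle genes. Of 26 immediate early and heat shock genes 15 were called below 0 and 4 above (9.45% and 21.4% of all genes). The median was -0.55, with -0.54 in experiment 1 and -0.57 in experiment 2. Their median genotype difference was 0.50 in Flt3- cells, and in Flt3+ cells it was -0.05, or 0.02 when arrays were scaled to their medians. Over all genes 4.39% had genotype effects called in opposite directions. The genotype effects were called in opposite directions for 12 of the 26, and for 7 without Irf8KO Flt3+ replicate 2. Fosb, a subunit of AP-1, read 1.23 and 1.10 in WT Flt3+, -0.05 and -0.08 in Irf8KO Flt3+, -0.52 and -0.52 in WT Flt3-, and -0.18 and -0.18 in Irf8KO Flt3- cells. WT Flt3+ cells stood apart above the other 3 groups, and the interaction was -1.58 (SE 0.0772, adjusted p = 0.000522). Zfp36, which degrades cytokine messages, had the lowest value, -1.60 (SE 0.115), with -0.66 in Flt3+ and 0.94 in Flt3- cells. Egr1, a growth factor response factor (-1.48, SE 0.1), and Btg2, an antiproliferative gene (-1.23, SE 0.0817), also fell in Flt3+ and rose in Flt3- cells. The 4 members called above 0, named for their number, were Hspa1a (1.15), Hsph1 (0.68) and Hsp90aa1 (0.54), all heat shock genes, and Fosl2 (0.37). The WT gap between populations in this list, a median of 1.06, was 0.23 on Irf8KO arrays. How long cells were handled before lysis is not stated in the labels, and its part in these values was not tested.

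**Figure D4:**
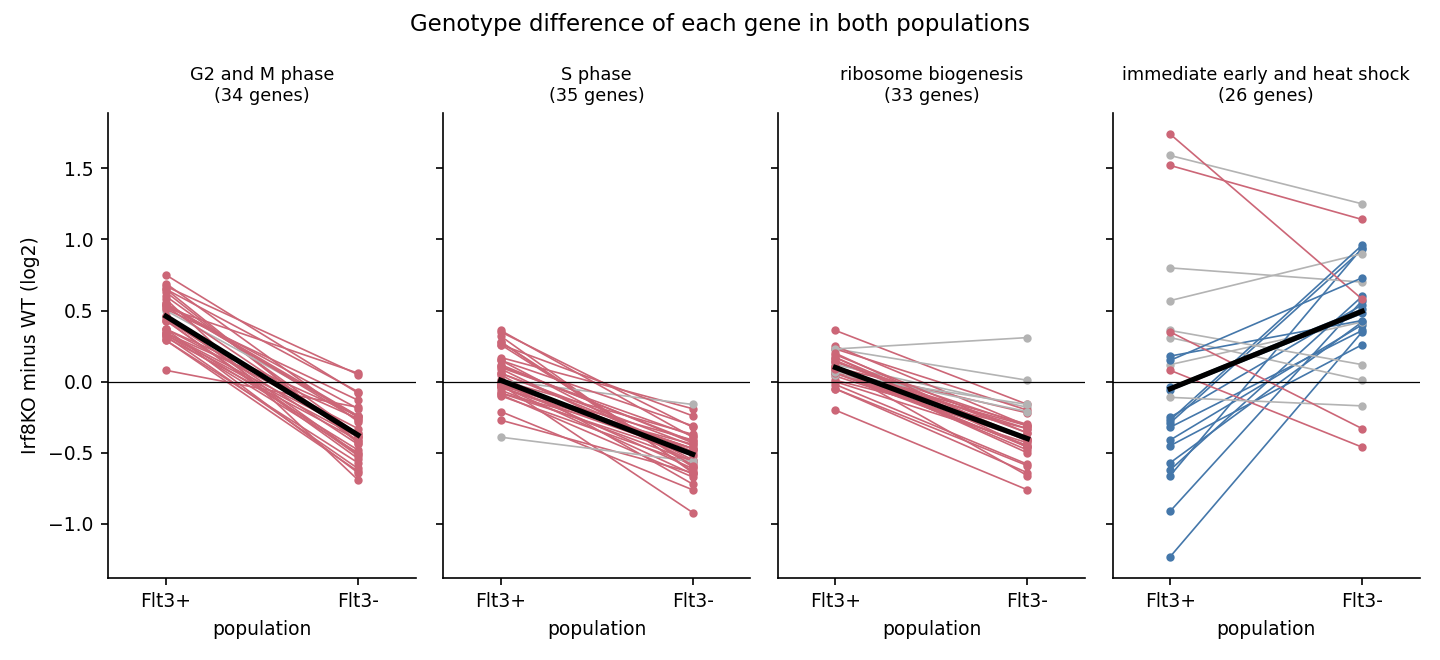
Irf8KO minus WT difference (log2, y axis) in Flt3+ and Flt3- progenitors for each tested gene of 4 lists, with genes called in the interaction in red (above 0) or blue (below 0), others in grey and the list median in black. The G2 and M phase median goes from 0.46 in Flt3+ to -0.37 in Flt3-, the S phase and ribosome biogenesis medians fall to -0.51 and -0.40, and the immediate early and heat shock median climbs from -0.05 to 0.50.

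Interferon-stimulated genes, the class that Irf8's family is named for, also had interactions mainly below 0. Of 46 members 23 were called below 0 and 1 above (median -0.36, -0.35 and -0.38 in the experiments), and the count below 0 was 15 when arrays were scaled to their medians and 30 at the most under another setting. The median genotype difference was -0.08 in Flt3+ and 0.19 in Flt3- cells. Slfn2, a schlafen gene that keeps T cells and monocytes quiescent, read -2.01 and -2.10 in WT Flt3+, -2.64 and -2.92 in Irf8KO Flt3+, -1.17 and -1.05 in WT Flt3-, and -0.74 and -0.66 in Irf8KO Flt3- cells. The groups did not overlap, and loss of Irf8 went with less RNA in Flt3+ and more in Flt3- cells (interaction -1.14, SE 0.148, adjusted p = 0.00475). Oas2, which senses double-stranded RNA, was higher on Irf8KO arrays in both populations, by 1.34 and 2.28 (interaction -0.94), and Ifi44 was lower in both, by -1.10 and -0.30 (interaction -0.80). Oasl2 differed by -0.12 in Flt3+ and 0.67 in Flt3- cells. The Oas genes are a family of similar copies and their values are uncertain. Ifi47, an interferon-induced GTPase, was the member called above 0 and is named for that (0.60).

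Letters of the elements that Irf8 complexes are known to bind were compared in the same promoter windows. The interferon response element, searched as GAAA, any 2 bases and GAAA on either strand, was present in 3.22% of promoters of all tested genes, in 2.89% of those called above 0 and in 5.36% of those called below 0. In the interferon-stimulated list the share was 50%, 21 of 42 promoters. The ETS-IRF composite, searched as GGAA, any 2 bases and GAAA, was present in 2.38%, 2.18% and 2.64%, and the AP-1 site TGANTCA in 5.49%, 4.93% and 6.68%. Promoters of Slfn2 and Ifi44, each with 1 match to the composite on the other strand (capitals), are shown as the 250 bases before the start, at chr11:83064862-83065111, plus strand, and at chr3:151749911-151750160, minus strand.
Slfn2: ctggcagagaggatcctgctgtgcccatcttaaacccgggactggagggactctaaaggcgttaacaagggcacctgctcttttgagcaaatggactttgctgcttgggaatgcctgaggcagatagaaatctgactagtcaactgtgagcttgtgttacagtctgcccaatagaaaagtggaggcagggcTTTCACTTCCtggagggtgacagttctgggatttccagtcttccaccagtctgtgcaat
Ifi44: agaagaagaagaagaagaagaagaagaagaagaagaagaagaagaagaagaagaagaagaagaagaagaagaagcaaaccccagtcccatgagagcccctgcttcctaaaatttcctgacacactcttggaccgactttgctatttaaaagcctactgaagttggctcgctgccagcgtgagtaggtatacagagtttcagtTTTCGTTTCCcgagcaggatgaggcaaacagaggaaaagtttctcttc
The windows of Oasl2, Cavin2 and Klra8 hold no match to either of the 2 longer letter patterns, which says only that these letters are not in those 250 bases.

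The lists of neutrophil granule genes had interactions mainly above 0. They also hold genes that do not encode granule proteins, among them Ms4a3, Igsf6, Clec5a and Trem3. Of 19 primary granule genes 11 were called above 0 and none below, with a median of 0.62. With genes that have a dim group set at their bound, or at 0 where no bound could be given, the median was 0.45. Medians at the bounds in the lists below were computed likewise. In Flt3+ cells 13 rose and in Flt3- cells 8, where 16.5% of all genes rose in each. Ms4a3, a marker of granulocyte and monocyte progenitors, read 1.98 and 1.99 in WT Flt3+, 3.67 and 3.67 in Irf8KO Flt3+, 7.30 and 7.27 in WT Flt3-, and 7.10 and 7.09 in Irf8KO Flt3- cells. It rose by 1.68 in Flt3+ cells and fell by 0.19 in Flt3- cells, and the interaction was 1.87 (SE 0.0529, adjusted p = 0.000116). Elane, neutrophil elastase, read 3.66 and 3.58, 5.96 and 5.96, 8.36 and 8.25, and 8.78 and 8.80 in the same order, so it rose 5.07-fold in Flt3+ and 1.40-fold in Flt3- cells (interaction 1.85, SE 0.0766). Igsf6, a myeloid surface protein, stood at 1.36 (SE 0.0733). Clec5a had a fitted interaction of 1.51, but it was not well above background in WT Flt3+ cells, no bound could be given, and the sign turned when dim signals were set to a floor (-0.64) or after normexp correction (-0.06).

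Of 23 secondary and tertiary granule genes 9 were called above 0 and 2 below, with a median of 0.36 (0.21 at the bounds). Trem3, an activating receptor of myeloid cells, read -1.49 and -1.61 in WT Flt3+, 2.19 and 2.25 in Irf8KO Flt3+, 2.84 and 2.90 in WT Flt3-, and 3.60 and 3.56 in Irf8KO Flt3- cells. It rose 13.6-fold in Flt3+ and 1.63-fold in Flt3- cells (interaction 3.06, SE 0.0817, adjusted p = 0.000116), so that the gap between WT populations, 21.4-fold, was 2.57-fold on Irf8KO arrays. Wfdc21, a small secreted protein of the whey acidic protein family, rose in Flt3+ cells, from -3.75 and -3.86 to -2.41 and -2.26, and fell in Flt3- cells, from 1.27 and 1.26 to -0.03 and 0.00 (interaction 2.75, SE 0.0944). Hp, haptoglobin, stood at 1.60 (SE 0.0568). Retnlg, a resistin-like protein of neutrophils, went against the list: it rose 4.05-fold in Flt3+ and 15.9-fold in Flt3- cells, an interaction of -1.97 (SE 0.119, adjusted p = 0.000882). The orphan receptors Mrgpra2a and Mrgpra2b, near-identical neighbours that cannot be told apart with certainty, rose 12.1- and 11.9-fold in Flt3+ and 2.28- and 2.41-fold in Flt3- cells (interactions 2.41 and 2.30). Genes of mature neutrophils gave no common direction, with 2 called above and 4 below 0 of 15. The count above was 0 without WT Flt3- replicate 1 and 1 without WT Flt3+ replicate 1, either Irf8KO Flt3+ replicate or Irf8KO Flt3- replicate 2. With arrays scaled to their medians 3 were called above and 2 below. The count below was 1 without WT Flt3- replicate 2 or Irf8KO Flt3+ replicate 1 and 2 without WT Flt3- replicate 1 or Irf8KO Flt3+ replicate 2. Padi4, which citrullinates histones, fell by 1.04 in Flt3+ and 0.19 in Flt3- cells on the log2 scale.

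Early lymphoid genes split, with 8 of 27 called above 0, 5 below (21.4% and 9.45% of all genes) and a median of -0.01. B-lineage genes were among those above 0. Il7r, the interleukin 7 receptor, read 0.04 and 0.13 in WT and 1.72 and 1.84 on Irf8KO arrays in Flt3+ cells and was not well above background in Flt3- cells of either genotype, so its fitted interaction of 3.09 has no measured size and only the Flt3+ rise of 3.24-fold is known. The same holds for Ebf1, a B-lineage factor, which rose 3.15-fold in Flt3+ cells; its interaction call (adjusted p = 0.0297) was lost in 6 of the 8 fits that left out 1 array (adjusted p = 0.0533 to 0.0853). Vpreb3, a surrogate light chain partner outside the list, read 0.52 and 0.59 in WT Flt3+, 0.80 and 0.84 in Irf8KO Flt3+, -1.17 and -1.03 in WT Flt3-, and -3.28 and -3.52 in Irf8KO Flt3- cells. Its interaction of 2.56 (SE 0.133, adjusted p = 0.000655) rested on a 4.92-fold fall in Flt3- cells, beside 0.26 (adjusted p = 0.0874) in Flt3+ cells. Mzb1, a chaperone of B and plasmacytoid dendritic cells, rose 3.01-fold in Flt3+ and fell 1.87-fold in Flt3- cells (interaction 2.49, SE 0.137). Cd2, an adhesion receptor of T and NK cells, went the other way. It read -3.97 and -3.76 in WT Flt3+, -7.53 and -7.38 in Irf8KO Flt3+, not well above background, -4.37 and -4.39 in WT Flt3-, and -3.22 and -2.96 in Irf8KO Flt3- cells, an interaction of at least 6.18-fold below 0 (adjusted p = 0.000183).

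NK cell genes had interactions below 0. Of 24 listed genes 22 were named on the array and 16 tested, of which 9 were called below 0 and none above. The median was -1.02, or -0.73 at the bounds, -0.35 after normexp background correction, where immediate early and heat shock genes (-0.52) lay lower, and -0.58 over the 7 genes measured on all arrays, of which 4 were called, beside -0.63 for platelet genes measured likewise. Il2rb, the interleukin 2 and 15 receptor beta chain, read -3.41 and -3.36 in WT Flt3+, -4.11 and -4.43 in Irf8KO Flt3+, -4.30 and -4.21 in WT Flt3-, and -2.53 and -2.46 in Irf8KO Flt3- cells. It was above background on all 8 arrays, and the populations changed order between genotypes (interaction -2.65, SE 0.154, adjusted p = 0.000818). Klra4, a further Ly49 gene, had an interaction of at least 5.82-fold below 0. The interaction of Klra7, another, was fitted at -3.81 and has no exact size. Klra7 was well above background on only 1 array of each WT group, and its call was lost in 5 of the 8 fits that left out 1 array (adjusted p = 0.0629 to 0.0732). Xcl1, a chemokine of NK and T cells, was not above background in Irf8KO Flt3+ cells, was so on 1 of 2 WT Flt3- arrays, and lay at least 4.18-fold below 0. Tbx21, T-bet, was above background in WT Flt3+ cells alone, so its interaction has no measured size.

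Other NK-defining genes gave no call. Nkg7, a granule protein, stood at 0.14 (adjusted p = 0.103) and Prf1, perforin, at -0.09 (adjusted p = 0.832), and Ncr1, Klrk1, Klrc1 and Fasl did not pass the filter on dim probes in any group; these are named here because they define the type. The summed signal of the 16 tested genes was 26.1 to 26.4 in Flt3+ cells of both genotypes and 92.7 to 98.9 in Flt3- cells. It adds linear signals, so bright genes weigh most. Klra8, Klra4, Klra7, Il2rb and Tbx21 read -2.09 or lower (log2) on every array, so the sum says little of them. The part of contaminating NK cells in these values was not tested. Ccl3 and Ccl4, chemokines of macrophages and NK cells, moved in parallel with Il2rb. Ccl3 read 2.11 and 2.08 in WT Flt3+, 1.51 and 1.43 in Irf8KO Flt3+, -2.04 and -2.20 in WT Flt3-, and -0.43 and -0.43 in Irf8KO Flt3- cells (interaction -2.32, SE 0.091, adjusted p = 0.000281). Ccl4 stood at -1.92 (SE 0.0664), falling 1.64-fold in Flt3+ and rising 2.32-fold in Flt3- cells.

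Platelet and megakaryocyte genes, the group of Cavin2, were lower on Irf8KO arrays chiefly in Flt3+ cells. Of 21 tested genes 12 were called below 0 and none above, with a median of -0.66 (-0.63 at the bounds). In Flt3+ cells 18 fell, where 12.5% of all genes did, against 10 in Flt3- cells, where 27.2% did. The 9 that were not called, named for that reason, were Itgb3, Gp1bb, Gp9, Gp5, Plek, Treml1, Clec1b, Serpine2 and Zfpm1. Pf4, platelet factor 4, read 1.54 and 1.67 in WT Flt3+, -2.02 and -1.94 in Irf8KO Flt3+, 0.23 and 0.16 in WT Flt3-, and -0.79 and -0.94 in Irf8KO Flt3- cells. It fell 12.0-fold in Flt3+ and 2.09-fold in Flt3- cells (interaction -2.52, SE 0.108, adjusted p = 0.000375). Ppbp, a platelet chemokine, fell at least 28.4-fold in Flt3+ cells but was dim in both Irf8KO groups, so its interaction has no measured size. Gp1ba, a subunit of the von Willebrand factor receptor, was at least 2.04-fold below 0, a call lost in 6 of the 8 fits that left out 1 array (adjusted p = 0.0529 to 0.0819). The summed signal of the list was 80.7 and 84.3 in WT Flt3+, 51.1 and 53.5 in Irf8KO Flt3+, 69.1 and 70.1 in WT Flt3-, and 58.7 and 62.4 in Irf8KO Flt3- cells. The part of platelets or megakaryocyte progenitors in the sort was not tested.

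Erythroid genes, which fell strongly in both populations, gave no common interaction: 5 of 22 were called above 0 and 7 below, with a median of 0.05, and without WT Flt3- replicate 2 only 4 were called below. Hba-a1, alpha globin, fell 102-fold in Flt3+ and 29.7-fold in Flt3- cells (interaction -1.77, SE 0.167, adjusted p = 0.00229), with the near-identical Hba-a2 not separable by hybridisation. Klf1, a red cell transcription factor that was not above background in Irf8KO Flt3- cells, went the other way, with an interaction of at least 2.16-fold above 0. Rhd, a blood group antigen, was also called above 0, but it was above background on 1 of 2 Irf8KO Flt3+ arrays and no Irf8KO Flt3- array, so its size is not known, and the call was lost after normexp correction and with a floor on dim signals. Of 23 eosinophil, basophil and mast cell genes 7 were called above and 6 below 0 (median -0.25). Without WT Flt3- replicate 2 or Irf8KO Flt3+ replicate 2 only 4 were called above. Prss34, a basophil protease, fell 23.9-fold in Flt3+ and 6.45-fold in Flt3- cells (interaction -1.89, SE 0.131), and Cpa3, a mast cell carboxypeptidase, fell 6.39- and 2.82-fold (interaction -1.18, SE 0.0937).

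**Figure D5:**
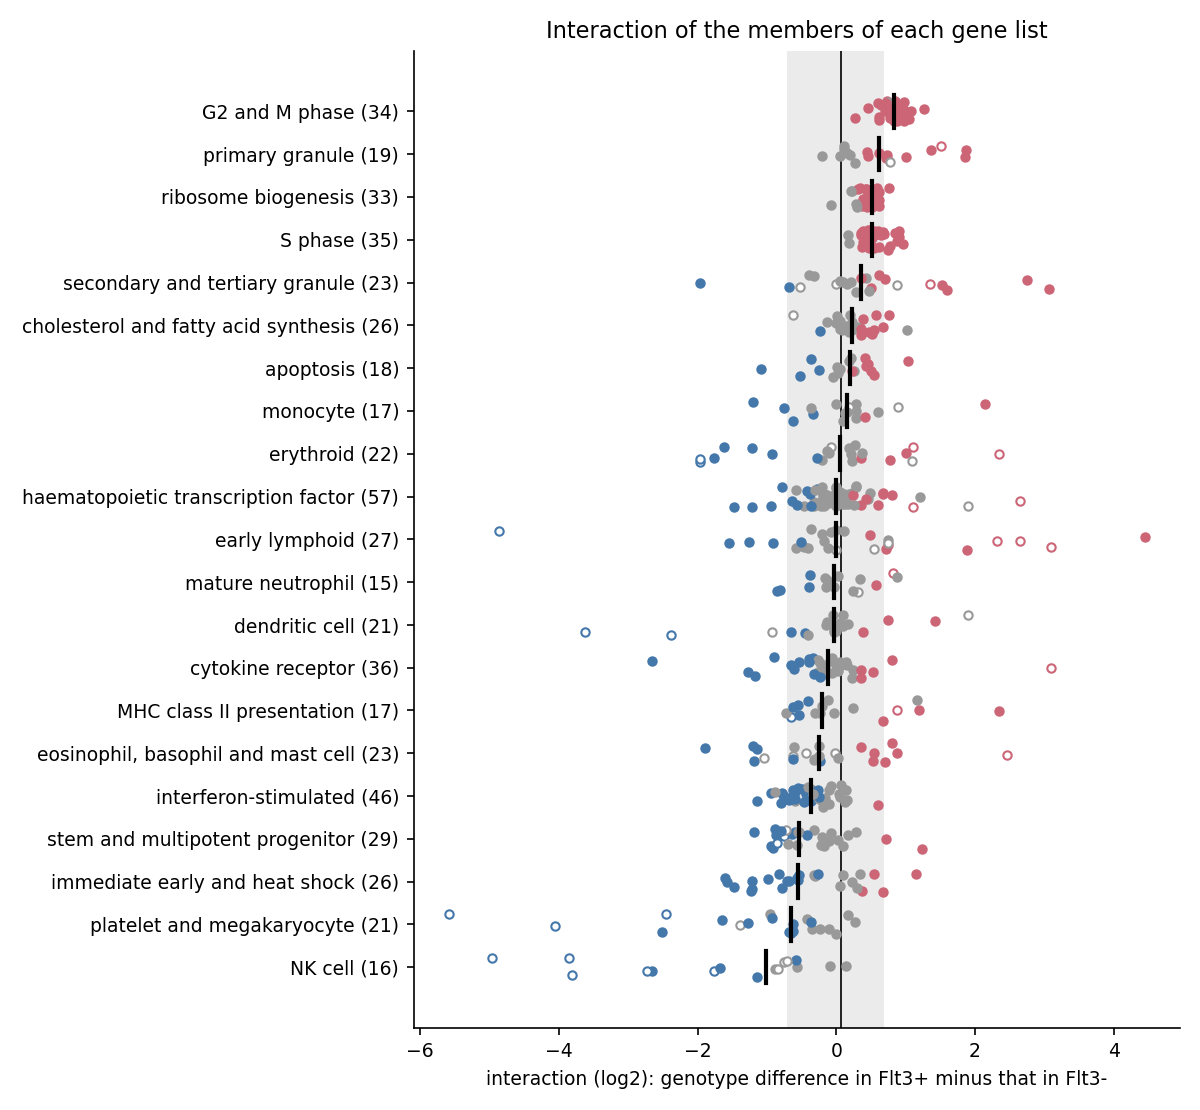
Interaction (log2, x axis) of each tested gene by list, with the number of genes in parentheses, genes called above 0 in red and below 0 in blue, others in grey, and open symbols for genes with a group not above background. Black bars are list medians, the vertical line is the median of all genes and the shaded band holds 90% of them (-0.7 to 0.68); the medians go from 0.83 for G2 and M phase to -1.02 for NK cell genes.

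Stem and multipotent progenitor genes had a median interaction of -0.54, or -0.20 at the bounds. Of 29 members 11 were called below 0 and 2 above (9.45% and 21.4% of all genes). Of the 4 members with a dim group 1 had a bound. Txnip, a stress-responsive inhibitor of thioredoxin, fell by 0.46 in Flt3+ cells on the log2 scale and rose by 0.73 in Flt3- cells (interaction -1.19, SE 0.0891, adjusted p = 0.00148), and Mycn did likewise (interaction -0.94, SE 0.135). Prom1, prominin 1, rose 2.54-fold in Flt3+ cells and differed by 0.11 in Flt3- cells (interaction 1.23). Only 1 of its 2 kept probes was called, and the other gave an interaction of 0.16. Among the genes that define the sort, Flt3 itself did not pass the test in Flt3+ cells (0.08, adjusted p = 0.156) and was 2.03-fold higher on Irf8KO arrays in Flt3- cells, from 1.69 and 1.66 to 2.71 and 2.68. Its interaction was therefore -0.94 (SE 0.0539, adjusted p = 0.000783). The interaction of Kit, the stem cell factor receptor, was -0.40 (adjusted p = 0.00765), or -0.33 (adjusted p = 0.0784) with arrays scaled to their medians. Cd34, a surface sialomucin of progenitors, stood at 0.30, a call lost under both other scalings (0.05 after quantile normalization) and in 6 of the 8 fits that left out 1 array (adjusted p = 0.0502 to 0.0806).

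Lists of dendritic cell, MHC class II and monocyte genes, the lineages that depend on Irf8, had calls in both directions. Of 21 dendritic cell genes 3 were called above and 4 below 0 (median -0.04), of 17 MHC class II genes 4 and 5 (median -0.21), and of 17 monocyte genes 2 and 4 (median 0.15). The called shares, 33.3%, 52.9% and 35.3%, compare with 30.9% of all genes. Below 0, 2 MHC class II genes were called without WT Flt3+ replicate 1 or Irf8KO Flt3+ replicate 2, and 3 without WT Flt3- replicate 2, Irf8KO Flt3+ replicate 1 or Irf8KO Flt3- replicate 2. Above 0, 1 dendritic cell gene was called without Irf8KO Flt3- replicate 2. Above 0, 1 monocyte gene was called without either WT Flt3- replicate, Irf8KO Flt3+ replicate 2 or Irf8KO Flt3- replicate 1, and 4 without Irf8KO Flt3- replicate 2. Cx3cr1, the fractalkine receptor of monocytes, read 1.62 and 1.73 in WT Flt3+, 3.16 and 3.29 in Irf8KO Flt3+, 0.65 and 0.65 in WT Flt3-, and 0.14 and -0.05 in Irf8KO Flt3- cells. It rose 2.93-fold in Flt3+ and fell 1.52-fold in Flt3- cells (interaction 2.15, SE 0.118, adjusted p = 0.000689). Mpeg1, perforin 2 of macrophages, did the reverse (interaction -1.20, SE 0.0566). Ctss, a protease of antigen processing, fell 3.36-fold in Flt3- cells (interaction 1.19). Lgmn, another, was above background on 1 of 2 Irf8KO Flt3- arrays, so its interaction, fitted at 2.35, has no exact size. Cox6a2, a mitochondrial protein of plasmacytoid dendritic cells, rose 5.68- and 2.12-fold in Flt3+ and Flt3- cells (interaction 1.42, SE 0.064). Clec9a, a receptor of cross-presenting dendritic cells, was above background in WT Flt3+ cells alone, where it stood at least 3.53-fold above Irf8KO Flt3+ cells.

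Over all genes 21.4% were called above and 9.45% below 0, the background for each list of this paragraph. Haematopoietic transcription factors had a median of 0, with 9 of 57 called above and 11 below 0. Without Irf8KO Flt3+ replicate 2 only 4 were called above, and without WT Flt3- replicate 1 or 2 only 5 were called below, with 6 and 7 without Irf8KO Flt3+ replicate 1 or 2; the count below was 17 after quantile normalization and 5 with arrays scaled to their medians. Egr1 is given above. Gata1, the erythroid and mast cell factor, fell in both populations, but it was above background on 1 of 2 Irf8KO Flt3+ arrays, so only the fall in Flt3- cells, 3.54-fold, has a measured size. The interaction of Gata1 (-1.22, adjusted p = 0.0374) was lost in 6 of the 8 fits that left out 1 array (adjusted p = 0.0654 to 0.0969) and turned to 0.77 after normexp correction. Cytokine receptors had 5 of 36 called above 0 and 12 below, with a median of -0.12. The count above was 2 without either WT Flt3- replicate or either Irf8KO Flt3+ replicate and 3 without WT Flt3+ replicate 2, and the count below was 7 with arrays scaled to their medians. Il10ra, the interleukin 10 receptor, rose 2.06-fold in Flt3- cells and differed by -0.13 in Flt3+ cells (interaction -1.17, SE 0.0948, adjusted p = 0.00177). Of 18 apoptosis genes 7 were called above 0 and 4 below, with 4 above without WT Flt3- replicate 1 or 2. The count below was 1 with arrays scaled to their medians or without WT Flt3- replicate 2, and 2 without WT Flt3+ replicate 2, WT Flt3- replicate 1, either Irf8KO Flt3+ replicate or Irf8KO Flt3- replicate 2. Pmaip1, the BH3-only protein Noxa, rose 2.77-fold in Flt3+ and 1.36-fold in Flt3- cells (interaction 1.03, SE 0.0643), while Bmf, another BH3-only protein, rose 2.53-fold in Flt3- cells and did not pass the test in Flt3+ cells (interaction -1.09, SE 0.126).

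Outside the lists, the highest interaction among genes measured on all arrays was that of Gpr25, an orphan G protein-coupled receptor. It read -0.87 and -0.97 in WT Flt3+, 2.02 and 2.06 in Irf8KO Flt3+, -2.52 and -2.02 in WT Flt3-, and -2.70 and -2.27 in Irf8KO Flt3- cells. It rose 7.77-fold in Flt3+ cells, while the Flt3- groups overlapped (interaction 3.17, SE 0.285, adjusted p = 0.00201). Of its 2 kept probes 1 was called, and the other gave 2.13. Etv5, an ETS factor downstream of growth factor signalling, rose 1.32-fold in Flt3+ and fell 3.55-fold in Flt3- cells (interaction 2.23, SE 0.0697). At the other end, 0610040J01Rik, a gene without an assigned role, fell 13.5-fold in Flt3+ and 1.75-fold in Flt3- cells (interaction -2.95, SE 0.0677, adjusted p = 8.27e-05). Sdc1, syndecan 1, a proteoglycan of plasma cells, rose 1.70-fold in Flt3+ and 8.20-fold in Flt3- cells (interaction -2.27, SE 0.31). Zfr2, a zinc finger RNA-binding protein, stood at -1.97. Among genes with a dim group, Esm1, a secreted proteoglycan of endothelium, rose 10.2-fold in Flt3+ cells and was not above background in Irf8KO Flt3- cells, an interaction of at least 13.9-fold above 0 (adjusted p = 0.00362). Cass4, a scaffold of focal adhesions, and Arhgdig, an inhibitor of small GTPases, were dim in the same group. On the brightest probe they lay at least 8.23- and 4.62-fold above 0. Each has 2 kept probes, both called above 0, and the other probe gave smaller values, 0.5 for Cass4 and 1.66 for Arhgdig. The limits therefore hold for the brightest probe alone.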

How the data were processed

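RNA of 8 sorted samples was labelled with Cy3 and hybridised to Agilent arrays read with Agilent Feature Extraction 10.7.3.1. The deposited intensity values are the scanner's processed signals, background-subtracted by that software, per the file headers. The deposited series table holds the same signals multiplied by 1 factor per array, so that every array has 1 common 75th percentile. Here log2 of the processed signal minus each array's 75th percentile was used, without control spots and outlier flags. A probe was kept where some group had it well above background on both of its arrays. The brightest kept probe stood for a gene, and 14108 genes were tested. Of 55681 probes 26762 were named through RefSeq (GRCm38.p6) and 28919 were not.

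All differences and adjusted p-values come from limma 3.58.1 in R 4.3.3, with 4 group means fitted to all 8 arrays, eBayes and Benjamini-Hochberg adjustment over all genes; 4 genes lacked 1 array value, which the fit dropped. The script was tested on simulated data. The members, gene lists and tests were chosen with earlier results of these data known. Named genes are called genes with the highest and lowest interactions (measured in all groups, or bounded), the largest reversals, up to 4 per list, and Irf8, Flt3, Kit, Cd34 and the 4 marker genes; exceptions are marked. The titles number 2 independent experiments, which pairs arrays across groups; deviations of same-numbered arrays correlated at -0.0285 to 0.123. Alternatives were quantile, median and normexp processing, the deposited table, other filters, a floor, the mean over probes, an intensity trend, the experiment as a block, and leaving out each array. No probe sequences were used here, and a few named genes are not reported here.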

Additional observations from a re-analysis of the deposited data

Results flagged for a closer look

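Each value below is flagged because the genotype effect differed between Flt3+ and Flt3- progenitors in the test of the difference itself, which called 4354 genes. The 4 marker genes were Cavin2 (-5.59), Klra8 (-4.97), Ly6d (4.45) and Ccnb1 (1.08). Among division, ribosome biogenesis and sterol genes they were Plk1 (1.05), Cdca3 (1.01), Cdc25c (1.27), Rrm2 (0.96), Ccne1 (0.9), Exo1 (0.9), Mcm10 (0.88), Nolc1 (0.76), Ncl (0.62), Ebna1bp2 (0.61), Nip7 (0.61), Sqle (0.67) and Idi1 (0.54). Among immediate early and interferon-stimulated genes they were Zfp36 (-1.6), Fosb (-1.58), Egr1 (-1.48), Btg2 (-1.23), Slfn2 (-1.14), Oas2 (-0.94), Ifi44 (-0.8) and Oasl2 (-0.79). Among granule and neutrophil genes they were Elane (1.85), Ms4a3 (1.87), Igsf6 (1.36), Clec5a (1.51), Trem3 (3.06), Wfdc21 (2.75), Hp (1.6), Retnlg (-1.97), Mrgpra2a (2.41), Mrgpra2b (2.3), Padi4 (-0.85), Fpr1 (0.82), Trem1 (0.57) and Ccrl2 (-0.81). Among lymphoid and NK genes and the chemokines beside them they were Il7r (3.09), Ebf1 (2.65), Vpreb3 (2.56), Mzb1 (2.49), Cd2 (-4.87), Il2rb (-2.65), Klra4 (-3.86), Klra7 (-3.81), Xcl1 (-3.58), Tbx21 (-2.73), Ccl3 (-2.32) and Ccl4 (-1.92). Among platelet, red cell, basophil and mast cell genes they were Pf4 (-2.52), Ppbp (-4.06), Gp1ba (-2.45), Alas2 (-1.96), Hba-a1 (-1.77), Hbb-bs (-1.96), Klf1 (1.11), Rhd (2.34), Prss34 (-1.89), Cpa3 (-1.18), Slc18a2 (-1.2) and Ms4a2 (2.46). Among receptors, progenitor genes and transcription factors they were Flt3 (-0.94), Kit (-0.4), Cd34 (0.3), Prom1 (1.23), Txnip (-1.19), Mycn (-0.94), Socs2 (-0.91), Gata1 (-1.22), Spib (-2.38) and Etv5 (2.23). Among monocyte, dendritic cell and antigen presentation genes they were Clec9a (-3.63), Itgax (0.75), Cox6a2 (1.42), Pld4 (-0.76), Ifi30 (0.68), Lgmn (2.35), Ctss (1.19), H2-Eb2 (0.87), Mpeg1 (-1.2), Ms4a6c (-0.62), Cx3cr1 (2.15) and Il10ra (-1.17). The remaining named genes were 0610040J01Rik (-2.95), Arhgdig (2.28), Bcl2a1d (-0.52), Bmf (-1.09), Cass4 (3.11), Ddx3y (-0.23), Esm1 (4.18), Gpr25 (3.17), Otogl (1.87), Pmaip1 (1.03), Sdc1 (-2.27), Slc36a2 (1.9) and Zfr2 (-1.97).

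No size can be given to the interactions of Il7r, Ebf1, H2-Eb2, Ppbp, Alas2, Hbb-bs, Clec9a, Tbx21, Ms4a2, Fpr1 and Clec5a, because groups on which they rest were not well above background. Ly6d, Rhd, Lgmn, Gata1, Spib, Socs2, Xcl1 and Klra7 were above background on only 1 of 2 arrays in at least 1 group. Some calls were lost when single arrays were left out. These were Slc36a2, Klra7, Alas2, Gp1ba, Tbx21, Ebf1, Fpr1, Ccrl2, Trem1, Spib, Itgax, H2-Eb2, Nip7, Gata1, Bcl2a1d, Ddx3y and Cd34. Those of Otogl, Rhd, Clec5a, Socs2 and Kit were lost under other processing alone. Ddx3y, the only called gene of 4 sex-linked genes, lost its call in 7 of the 8 fits that left out 1 array (highest adjusted p = 0.134, limma).

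Probes without a gene name here also carried signal. Of 14154 such probes 656 were called (4.63%), 327 above and 329 below 0, from -8.03 to 9.96, and 213 reached 2-fold.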

How the results depend on the processing

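Counts of called genes, called genes of at least 2-fold and called genes with opposite genotype effects were 4354, 429 and 619. Opposite effects numbered 312 after median scaling, 411 after normexp correction, 283 without a filter on dim probes and 940 with an intensity trend. For the interaction of at least 2-fold, genes called numbered 137 after normexp correction and 254 among genes above background on all arrays. Without a filter on dim probes 2725 genes were called. Leaving out 1 array gave 2515 to 4416, 367 to 465 and 225 to 604. With the experiment number as a replicate block the counts were 4407, 423 and 597, 4037 of the 4354 genes were still called, and no named gene changed its call. Of 54 counts over all alternatives 38 stayed within 1.5 times the value above. Named genes kept direction and call in 1697 fits, lost the call in 123 and turned in 4: Slc36a2 to -0.08, Clec5a to -0.06 and Gata1 to 0.77 after normexp correction, and Clec5a to -0.64 with a floor on dim signals; the cause was not tested. Of 102 named calls 22 were lost under at least 1 alternative, 17 of them without 1 array. List medians near 0 turned with scaling: erythroid, -0.01 after quantile normalization, and after median scaling early lymphoid (0.07), mature neutrophil (0.05) and dendritic cell (0.03); the eosinophil, basophil and mast cell median was 0.04 after normexp correction. Signal over background limits the calls with a dim group, 199 of 4354.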
